A study of Mus musculus with 6 samples.

Results

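MHC class II molecules display peptides taken up from outside the cell to CD4+ T cells. Each molecule pairs an α chain with a β chain, the invariant chain CD74 guards the groove until proteases such as cathepsin S trim it, and the DM heterodimer then loads peptide while the DO heterodimer restrains DM. The genes for the α and β chains, CD74 and DM are switched on together by the coactivator CIITA. The RFX and NF-Y complexes carry CIITA to an X box and a Y box in the promoters of these genes. B cells, dendritic cells and macrophages express class II constitutively, and intestinal epithelial cells express it as well, above all under interferon-γ. The 10 genes described here were taken by name from the deposited colonic crypt table: *H2-Aa*, *H2-Ab1*, *H2-Eb1*, *Cd74*, *Ciita*, *H2-DMa*, *H2-DMb1*, *H2-Oa*, *H2-Ob* and *Ctss*. All 10 were found among its 18049 genes, and all 10 passed the filter for testing.

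Total RNA was sequenced from crypts of 6 mice of 1 engineered line, with 1 library per mouse. All 6 carried a floxed allele deleted by Villin-Cre, which acts in intestinal epithelium and not in blood-derived cells, together with a humanized *TgfβRII* knockin, on a C57BL/6J background and a Western-style diet. GSK503, an inhibitor of the histone methyltransferase EZH2, was injected into the tail vein of 3 mice at 200 μg/kg, and 3 control mice received captisol vehicle. The age at collection is not given in the sources used here. Crypts were shaken free with EDTA and were not sorted, so each library held epithelium with some immune and stromal cells. The deposited values are CPM, in which counts are divided by library size after correction with TMM factors. The estimated depth lay between 108162848 and 135085027 counts, so that 3 counts corresponded to between 0.0228 and 0.0271 CPM, a floor that covers counting error only.

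Epithelial markers were high in every library. *Epcam* lay between 1802 and 2031.6 CPM in all 6 libraries and *Krt8* between 4505 and 6090.4 CPM. The targeted enzyme gene *Ezh2* measured 46.7, 37.4 and 46.5 CPM in the control mice and 36.6, 35.2 and 36.3 CPM in the GSK503 mice, a log2FC of -0.27 (adjusted p = 0.291 from limma), and an inhibitor of the protein need not lower this RNA. The 3 control mice had *Xist* at or below 0.936 CPM and *Ddx3y* at or above 61.4 CPM, while the 3 GSK503 mice had *Xist* at or above 825 CPM and *Ddx3y* at or below 0.0915 CPM. Sex and treatment therefore cannot be told apart in any difference between the groups.

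The promoters of several class II chain genes carry the letters of the Y box, a target of NF-Y, behind the letters of an X box, and they are shown because the RNA levels of these genes are compared below. The lines give windows of GRCm39 (with chromosome 17 coordinates) before the start of the canonical GENCODE transcript, written 5′ to 3′ on the gene's own strand. Capitals mark ATTGG and any TGANG, the X2-like letters, starting 10 to 40 bases before it, with overlapping TGANG matches run together. The rest of the X box is not marked.
*H2-Aa*, minus strand, chr17:34506831-34506890: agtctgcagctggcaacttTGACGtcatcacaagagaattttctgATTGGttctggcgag
*H2-Ab1*, plus strand, chr17:34482111-34482170: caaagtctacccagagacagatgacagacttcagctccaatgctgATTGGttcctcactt
*H2-Eb1*, plus strand, chr17:34524737-34524796: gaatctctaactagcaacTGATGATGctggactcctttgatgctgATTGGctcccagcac
*H2-DMa*, plus strand, chr17:34354476-34354535: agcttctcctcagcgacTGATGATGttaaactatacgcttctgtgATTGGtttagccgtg
*H2-Ob*, plus strand, chr17:34457777-34457835: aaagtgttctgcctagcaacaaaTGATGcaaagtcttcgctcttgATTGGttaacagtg
In the 250 bases before the start, ATTGG stood on either strand (CCAAT when read on the other) in 6 of the 10 genes and in 36.5% of 21738 protein-coding promoters. The spaced pair of TGANG and ATTGG on the gene's strand stood in 4 of the 10 and in 2.9% of all promoters. These patterns were chosen after the sequences had been read, and a match is a run of letters, not a measured binding site.

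Class II RNA was abundant in the crypts of both groups, and none of the 10 genes passed the test for a difference between them. In bulk RNA, fewer cells of a type and less RNA per cell cannot be told apart. *Cd74* stood near *Epcam* in level per length and the 3 chain genes below it, whereas *H2-Oa* and *H2-Ob* stood below 2 CPM in every library. Values had a larger SD among the GSK503 mice than among the control mice, except for *H2-DMb1*, *H2-Oa* and *H2-Ob*. Mouse 3 of the GSK503 group held the highest value of 7 of the 10 genes. Over all genes tested, that mouse was the highest of the 6 for 17.1%.

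Among the chain genes, *H2-Aa* encodes the α chain of the A molecule. It measured 220.3, 229 and 167 CPM in control mice 1, 2 and 3 and 162, 173 and 249.9 CPM in GSK503 mice 1, 2 and 3. GSK503 mouse 3 lay above every control mouse, and GSK503 mouse 1 lay below every control mouse. The group means were 205 ± 33.6 and 195 ± 48.0 CPM (SD, n = 3 mice each), and the log2FC was -0.09 (95% confidence interval -0.47 to 0.29, limma adjusted p = 0.869).

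*H2-Ab1* encodes the β chain that pairs with it. Its values were 310.3, 355 and 278 CPM in the control mice and 278, 259 and 432 CPM in the GSK503 mice, and GSK503 mouse 2 lay below and mouse 3 above every control mouse. The log2FC was 0.01 (interval -0.39 to 0.40, limma adjusted p = 0.99), and it fell to -0.11 when values were scaled by library size alone. *H2-Eb1* encodes the β chain of the E molecule, whose α chain gene, *H2-Ea*, is not functional in C57BL/6 mice. *H2-Ea* was not listed under that symbol among the deposited genes. *H2-Eb1* measured 237, 251 and 205 CPM in the control mice and 188, 184 and 319.7 CPM in the GSK503 mice. GSK503 mice 1 and 2 lay below all controls and mouse 3 above all of them, which left the means level at 231 ± 23.5 and 231 ± 77.0 CPM (SD, n = 3 mice each; log2FC -0.05, interval -0.47 to 0.38, limma adjusted p = 0.945). *H2-Aa* and *H2-Eb1* have annotated exons that overlap on opposite strands, and whether the counting used strand is not given in the sources used here.

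The invariant chain gene *Cd74* was the most abundant of the 10. It measured 1198, 1267 and 1163 CPM in the control mice and 945.5, 1030.2 and 1533 CPM in the GSK503 mice. The control mice lay close together, whereas the GSK503 mice lay on both sides of them. The means were 1209.5 ± 53.1 and 1169.5 ± 317 CPM (SD, n = 3 mice each), and the log2FC was -0.08 (interval -0.45 to 0.29, limma adjusted p = 0.884).

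**Figure D1:**
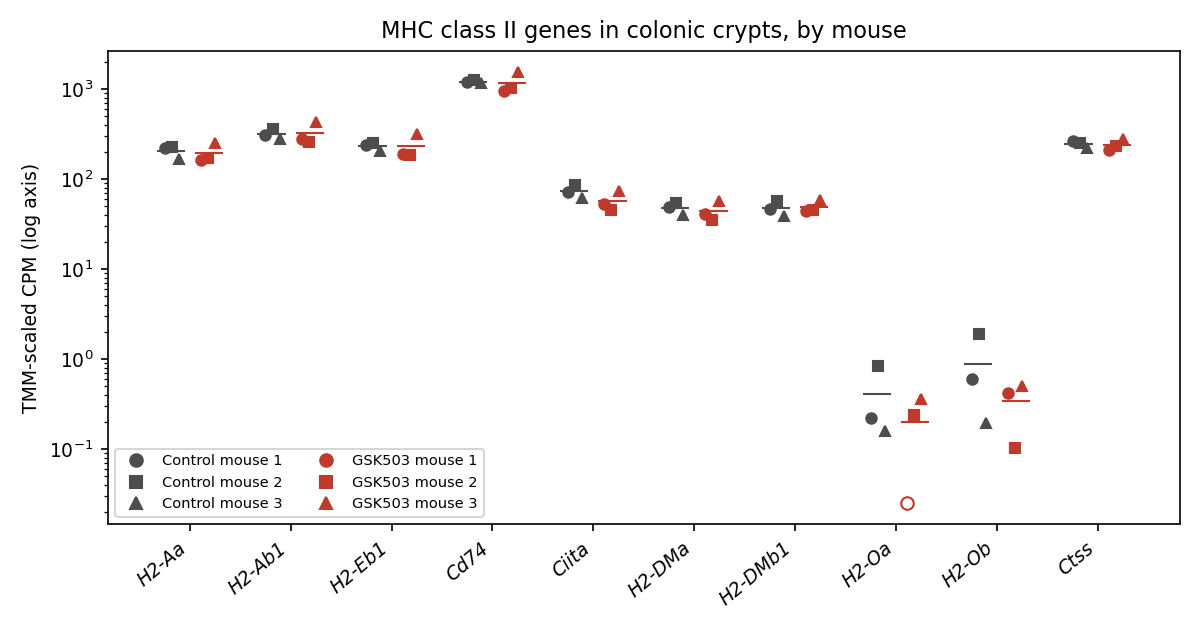
Level of each of the 10 class II genes in TMM-scaled CPM on a log axis, with 1 point per mouse (gray, control; red, GSK503) and a bar at each group mean. The groups overlap for all 10 genes, *Cd74* reaches 1533 CPM in GSK503 mouse 3, and *H2-Oa* and *H2-Ob* lie below 2 CPM in every library; the open circle is the *H2-Oa* value listed at 0, drawn at the floor of 3 counts.

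*H2-DMa* and *H2-DMb1* encode the 2 chains of DM, the peptide-loading catalyst. *H2-DMa* measured 49.0, 54.7 and 39.4 CPM in the control mice and 41.0, 35.2 and 56.9 CPM in the GSK503 mice (log2FC -0.12, interval -0.51 to 0.27, limma adjusted p = 0.818). *H2-DMb1* measured 47.0, 57.0 and 38.6 CPM in the control mice and 44.3, 45.1 and 58.2 CPM in the GSK503 mice (log2FC 0.06, interval -0.28 to 0.39, limma adjusted p = 0.915, and -0.06 with scaling by library size alone). Both genes were highest in GSK503 mouse 3 and the groups overlapped. The neighbouring copy *H2-DMb2* had nearly the same level, with group means of 44.7 and 46.7 CPM, and 18.9% of the 76-base windows of the *H2-DMb1* transcript occur in *H2-DMb2* as well, so the division of reads between these copies is uncertain.

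The DO genes stood far lower. *H2-Oa*, the DO α chain gene, measured 0.221, 0.841 and 0.157 CPM in the control mice, was listed at 0 in GSK503 mouse 1, and measured 0.239 and 0.358 CPM in GSK503 mice 2 and 3. These values correspond to about 29, 93 and 20 estimated counts for controls and 0, 30 and 43 after GSK503. *H2-Ob*, the DO β chain gene, measured 0.594, 1.88 and 0.197 CPM in the control mice and 0.424, 0.104 and 0.508 CPM in the GSK503 mice. Control mouse 2 was the highest for both. The log2FC was -0.77 for *H2-Oa* (interval -2.33 to 0.78, limma adjusted p = 0.677) and -0.88 for *H2-Ob* (interval -2.44 to 0.67, limma adjusted p = 0.628). Without control mouse 2 these estimates were -0.20 and -0.18, and without GSK503 mouse 1 that of *H2-Oa* was -0.12. With all 6 mice, the intervals covered 19.9% to 172% and 18.4% to 159% of the control level.

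*Ctss*, the gene for cathepsin S, which performs the late cleavage of the invariant chain, had the narrowest interval of the 10. Its values were 262, 250.1 and 222 CPM in the control mice and 208, 233 and 277 CPM in the GSK503 mice. The means of 245 ± 20.3 and 239 ± 35.0 CPM (SD, n = 3 mice each) gave a log2FC of -0.04 (interval -0.29 to 0.21, limma adjusted p = 0.918).

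*Ciita*, the gene for the coactivator itself, had the smallest p of the 10. It measured 71.0, 86.4 and 62.2 CPM in the control mice and 52.4, 44.8 and 74.4 CPM in the GSK503 mice. GSK503 mice 1 and 2 lay below every control mouse, while mouse 3 lay between control mice 1 and 2. The means were 73.2 ± 12.2 and 57.2 ± 15.4 CPM (SD, n = 3 mice each), and the log2FC was -0.38 (standard error 0.18, interval -0.78 to 0.03, unadjusted p = 0.064 and adjusted p = 0.414 from limma). Its exons overlap those of *Dexi* on the opposite strand.

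Of the 10 genes, 0 had an adjusted p under 0.05 from limma, where 0.642% of the 16670 genes tested did, and 0 had an unadjusted p under 0.05, where 13.3% of all genes did. The limma-voom fit also called 0 of the 10. In none of the 10 did every GSK503 mouse lie below every control mouse (9.22% of all genes) or above every control mouse (9.84%). A mean difference below 0 was found for 8 of the 10 and for 51.1% of all genes, and the median log2FC of the 10 was -0.09 against -0.01 over all genes. For *Cd74*, *H2-Aa*, *H2-Ab1* and *H2-Eb1*, the intervals reached from 72.1% to 132% of the control level.

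**Figure D2:**
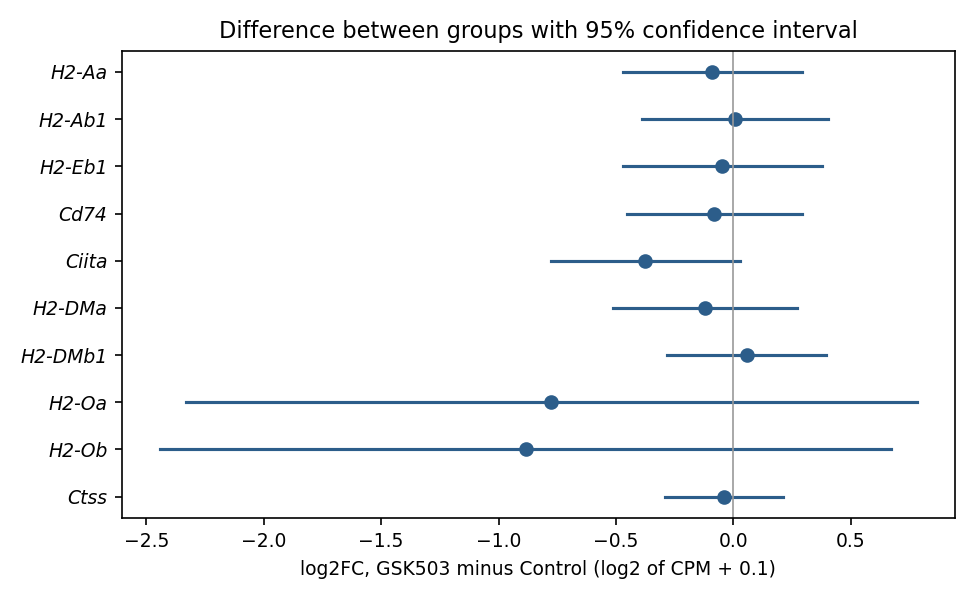
Difference between the GSK503 and control mice for each class II gene as log2FC on the log2(CPM + 0.1) scale (points), with its 95% confidence interval from limma (lines, 3 mice per group). All 10 intervals include 0, and those of *H2-Oa* and *H2-Ob* are the widest, from -2.33 to 0.78 and from -2.44 to 0.67.

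Without GSK503 mouse 3, all 10 estimates lay below 0, from -0.07 for *H2-DMb1* to -1.21 for *H2-Oa*, with a median of -0.30. *Cd74* then gave -0.29 (limma adjusted p = 0.214), *H2-Eb1* -0.31 (adjusted p = 0.177) and *Ciita* -0.58 (adjusted p = 0.0874). In that fit 0 of the 10 were called, against 1.33% of all genes. For each of the 10, mouse 3 lay above the log2 mean of GSK503 mice 1 and 2, so leaving it out had to lower every estimate. The median of the 10 was 0.04 without GSK503 mouse 1 and -0.01 without GSK503 mouse 2. It was -0.06, -0.02 and -0.18 without control mouse 1, 2 and 3.

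Per kilobase of the canonical transcript, the levels of the class II genes spanned several orders of magnitude. *Cd74* lay between 661 and 1071 CPM per kb, and its mean ranked 53 among 16071 genes, close to *Epcam* at rank 33. *H2-Ab1* followed at 214 to 356 CPM per kb, then *H2-Aa* at 144 to 222, *Ctss* at 152 to 203 and *H2-Eb1* at 109 to 188. The ranges of these 4 neighbours overlapped each other in order, and those of *H2-DMa* (30.6 to 49.5) and *H2-DMb1* (27.5 to 41.4) did as well. *Ciita* stood at 5.99 to 11.5 CPM per kb, near the median gene at 4.46. The leukocyte gene *Ptprc*, which encodes CD45, stood at 2.84 to 4.29 CPM per kb, and *Cd74* exceeded it between 195-fold and 346-fold within a library.

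Apart from *Cd74*, *Ciita* and *Ctss*, the members lie in the class II region of chromosome 17, which spans 34311314 to 34560386 from *H2-Oa* to *H2-Eb2* in GRCm39 and also holds the class I antigen processing genes *Psmb9*, *Tap1*, *Psmb8* and *Tap2*. Neighbours in the region differed widely in level. *H2-Ob*, at 0.0382 to 0.694 CPM per kb, sits next to *H2-Ab1*, and *H2-Eb2*, next to *H2-Eb1*, measured 0, 0.778 and 0.260 CPM in the control mice and 0.0170, 0.239 and 0.541 CPM in the GSK503 mice.

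**Figure D3:**
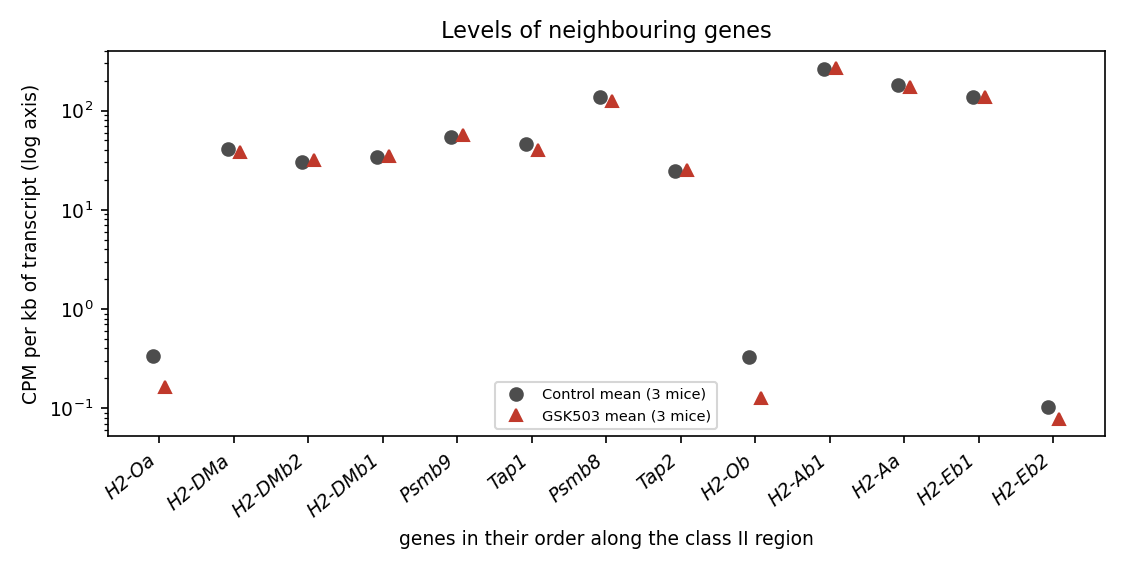
Level of the genes of the class II region in CPM per kb of transcript on a log axis, placed in their order along chromosome 17 (GRCm39), with the control mean and the GSK503 mean of 3 mice each. *H2-Ab1*, *H2-Aa* and *H2-Eb1* stand highest among the class II genes, and *H2-Oa*, *H2-Ob* and *H2-Eb2* stand lowest in both groups.

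The 3 chain genes and *Cd74* varied less against each other within a library than in level. *H2-Eb1* over *H2-Ab1* lay between 0.483 and 0.546 per length in the 6 mice, *H2-Aa* over *H2-Ab1* between 0.622 and 0.763, and *Cd74* over *H2-Ab1* between 2.88 and 3.54. *H2-DMa* over *H2-DMb1* lay between 0.952 and 1.27. The ratio of *Cd74* to the class I light chain gene *B2m* was as narrow, from 0.636 to 0.751. *Cd74* over *Epcam* was wider, from 0.587 in GSK503 mouse 1 to 0.939 in GSK503 mouse 3. Of 10 such ratios, 2 did not overlap between the groups. *H2-Ab1* over *Ciita* was 27.0, 25.4 and 27.6 among controls and 32.8, 35.7 and 35.8 after GSK503 (means 26.7 ± 1.13 and 34.8 ± 1.70, SD, n = 3 mice each). All 3 GSK503 mice, mouse 3 included, lay above all 3 control mice, but the ratio to *Ciita* was higher in every GSK503 mouse for 10.6% of all genes. The other was *H2-Ob* over the B cell gene *Ms4a1*, at 0.476, 0.665 and 0.497 among controls and 2.47, 1.84 and 6.29 after GSK503. The ratio to *Ms4a1*, which lay at or below 0.195 CPM in the GSK503 mice, separated the groups in this way for 91.6% of all genes, so this separation is not a result about *H2-Ob*.

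**Figure D4:**
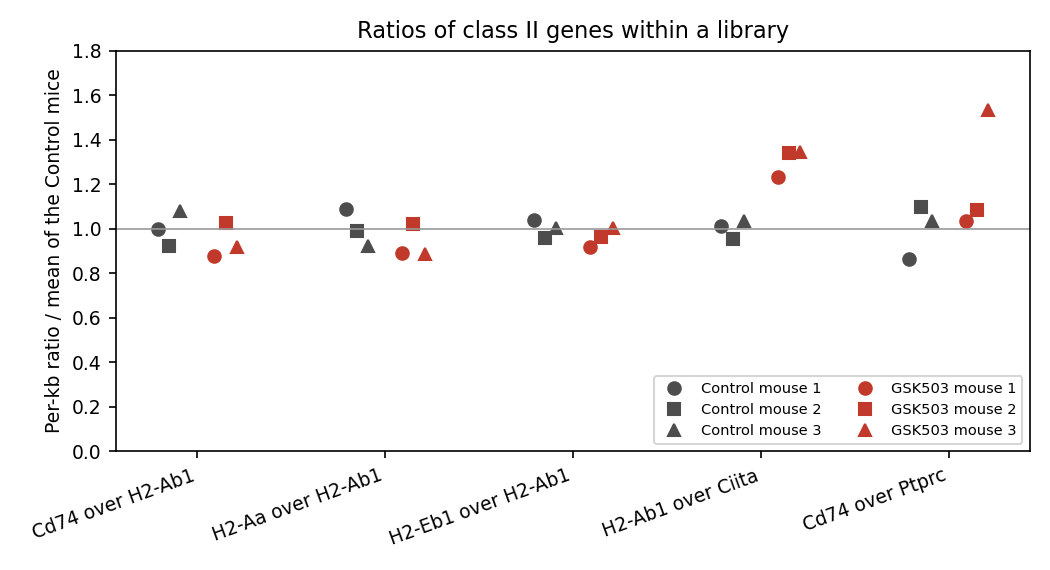
Ratios of levels per kb of transcript within each library, divided by the mean ratio of the 3 control mice, with 1 point per mouse (gray, control; red, GSK503; the shape gives the mouse number). *H2-Ab1* over *Ciita* separates the groups, from undivided ratios of 25.4 to 27.6 for controls and 32.8 to 35.8 after GSK503, while the ratios among *Cd74*, *H2-Aa*, *H2-Eb1* and *H2-Ab1* overlap.

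The factors that act on the class II promoters were described by a list of 7 genes, of which 0 were called. Over all genes tested, 0.642% were called, so 0 in a list of this size is no sign of equal levels. Of the 7, 4 had a lower and 3 a higher mean in the GSK503 mice, and the median log2FC was -0.08. The largest estimate was that of *Nfya*, which encodes the A subunit of NF-Y. It measured 23.1, 28.1 and 35.7 CPM in the control mice and 17.7, 16.0 and 19.9 CPM in the GSK503 mice, so the groups did not overlap (log2FC -0.67, interval -1.02 to -0.32, limma adjusted p = 0.0949). *Rfx5*, the DNA-binding subunit of RFX, gave -0.26 (adjusted p = 0.335) and *Nfyb* -0.20 (adjusted p = 0.452), and for both every GSK503 mouse lay below every control mouse, as for 9.22% of all genes. *Rfxank* had the highest estimate, 0.22 (adjusted p = 0.584).

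In the interferon-γ pathway, the inducer of epithelial class II, 0 of 14 genes were called, where 0.642% of all genes tested were. Such a count is no sign of equal levels in a list of this size. Of the 14, 6 were lower and 8 higher, with a median log2FC of 0.04. *Ifng* itself was scarce, at 0.632, 0.226 and 0.179 CPM in the control mice and 0.119 and 0.0637 CPM in GSK503 mice 1 and 2, and was listed at 0 in GSK503 mouse 3. GSK503 mouse 3 was the highest of the 6 for 5 of the 14 genes, among them *Cxcl9* at 15.7 CPM against 4.31 to 6.22 CPM in the others, *Gbp2* at 116 CPM and *Gbp3* at 44.5 CPM. *Ifng* gave the lowest log2FC of the list, -1.41 (interval -2.63 to -0.18, limma adjusted p = 0.308), and the chemokine gene *Cxcl10* the highest, 0.90 (interval -0.08 to 1.87, adjusted p = 0.42).

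Among 9 genes of endolysosomal processing and class II turnover, 0 were called, 3 were lower and 6 higher, and the estimates ran only from -0.07 for the legumain gene *Lgmn* to 0.10 for the cathepsin gene *Ctsh*. Their summed level differed by 1.075-fold between the highest and lowest mouse. The 5 costimulation genes, which supply the second signal to T cells, included 0 called, with estimates from -0.86 for *Cd86* to 0.37 for *Cd80*, both below 1 CPM in every mouse. Of 8 class I genes, 0 were called, with 3 lower, 5 higher and a range from -0.19 for *Tap1* to 0.11 for *H2-K1*. The share called over all genes tested was 0.642%, so 0 called in these short lists is no sign of equal levels.

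Marker RNA of B cells, plasma cells and smooth muscle varied more between mice than the sum of the chain genes and *Cd74* did, while *H2-Ob* alone varied 18.2-fold. The summed level of *H2-Aa*, *H2-Ab1*, *H2-Eb1* and *Cd74* was 1966, 2103 and 1813.5 CPM in the control mice. It was 1574, 1646 and 2534 CPM in the GSK503 mice, a 1.61-fold range over all mice. Other lists came closer to it, with ranges of 1.93-fold for macrophage, 2.09-fold for dendritic cell, 1.72-fold for leukocyte and 1.68-fold for T cell sums. The epithelial sum ranged 1.23-fold. Relative to the control mean, the dendritic cell sum lay at 0.64, 0.76 and 1.34 in the GSK503 mice. The class II sum lay at 0.80, 0.84 and 1.29. The 13 B cell markers summed to 14.0, 45.3 and 6.56 CPM in the control mice and 5.66, 2.13 and 4.97 CPM in the GSK503 mice, a 21.2-fold range. All 13 had a lower mean in the GSK503 mice and 0 were called, where 0.642% of all genes tested were. An unadjusted p under 0.05 from limma was found for 7 of the 13, where 13.3% of all genes had it. For 5 of the 13, every GSK503 mouse lay below every control mouse (9.22% of all genes). Control mouse 2, the highest for all 13, was also the highest for *Ciita*, *H2-Oa* and *H2-Ob* among the class II genes. Over all genes tested, that mouse was the highest of the 6 for 13.035%. The part of B cells in the class II levels was not tested.

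As with the sum of the chain genes and *Cd74*, some of the other marker lists, though not all, were highest in GSK503 mouse 3. Its 4 plasma cell genes summed to 364 CPM, against 7.07 and 4.67 CPM in GSK503 mice 1 and 2 and 121 to 315 CPM in the control mice. Its 6 smooth muscle genes summed to 122 CPM, against 4.52 and 4.26 CPM in the other GSK503 mice and 20.9 to 90.1 CPM in the control mice. The 14 macrophage genes summed to 117, 164 and 141 CPM in the control mice and 85.0, 86.5 and 150.02 CPM in the GSK503 mice, with 13 lower, 1 higher and 0 called. *Cd14* made up much of this sum, at 49.2 to 77.3 CPM, and was lowest in GSK503 mouse 3. Of the 14 genes, 7 were highest in that mouse, where 17.1% of all genes tested were. Among the 7, *Lyz2* measured 11.9, 24.3 and 11.2 CPM in the control mice and 1.59, 1.65 and 30.9 CPM in the GSK503 mice. *C1qb* measured 3.46, 6.23 and 3.49 CPM in the control mice and 0.534, 0.390 and 9.88 CPM in the GSK503 mice. *Mrc1*, at 1.47 CPM, was lowest in GSK503 mouse 3, as *Cd14* was. The 9 dendritic cell genes found of 10 listed summed to 4.57 to 5.17 CPM in the control mice and to 3.09, 3.68 and 6.46 CPM in the GSK503 mice, with *Batf3* at 0 in 2 libraries, *Clec9a* at 0 in control mice 1 and 3 and *Clec10a* at 0 in GSK503 mice 1 and 2. The 4 general leukocyte genes summed to 38.0, 36.7 and 30.0 CPM in the control mice and 22.1, 24.0 and 27.7 CPM in the GSK503 mice, with 4 lower and 0 called. Every GSK503 mouse lay below every control mouse for 2 of these 4 genes, where 9.22% of all genes did so. The endothelial genes summed to 4.54 to 6.85 CPM in the control mice and to 2.602, 2.78 and 10.3 CPM in the GSK503 mice. The fibroblast genes summed to 218 to 276 CPM and to 268, 348 and 395 CPM, so both sums were highest in GSK503 mouse 3 as well. Of the 7 fibroblast genes, however, 5 had a lower and 2 a higher mean in the GSK503 mice. Their median log2FC was -0.67, so the fibroblast sum does not stand for the list. Of these and the remaining lists, 0 genes were called among 4 plasma cell, 6 smooth muscle, 6 lymphoid follicle, 7 fibroblast and 6 endothelial genes tested. The share called over all genes was 0.642%, so 0 called in lists of this size is no sign of equal levels. The T cell sum, over 9 genes, lay between 16.7 and 28.0 CPM. The sum of 7 epithelial genes was 10887, 10300 and 9876 CPM in the control mice and 12184, 11865 and 10486 CPM in the GSK503 mice. Neither sum was highest in GSK503 mouse 3. GSK503 mice 1 and 2 had the highest epithelial sums and the lowest class II sums. All 7 epithelial genes had a higher mean in the GSK503 mice, and 0 were called. For 2 of the 7, every GSK503 mouse lay above every control mouse, where 9.84% of all genes did so. The part of any of these cells in the class II level was not tested.

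**Figure D5:**
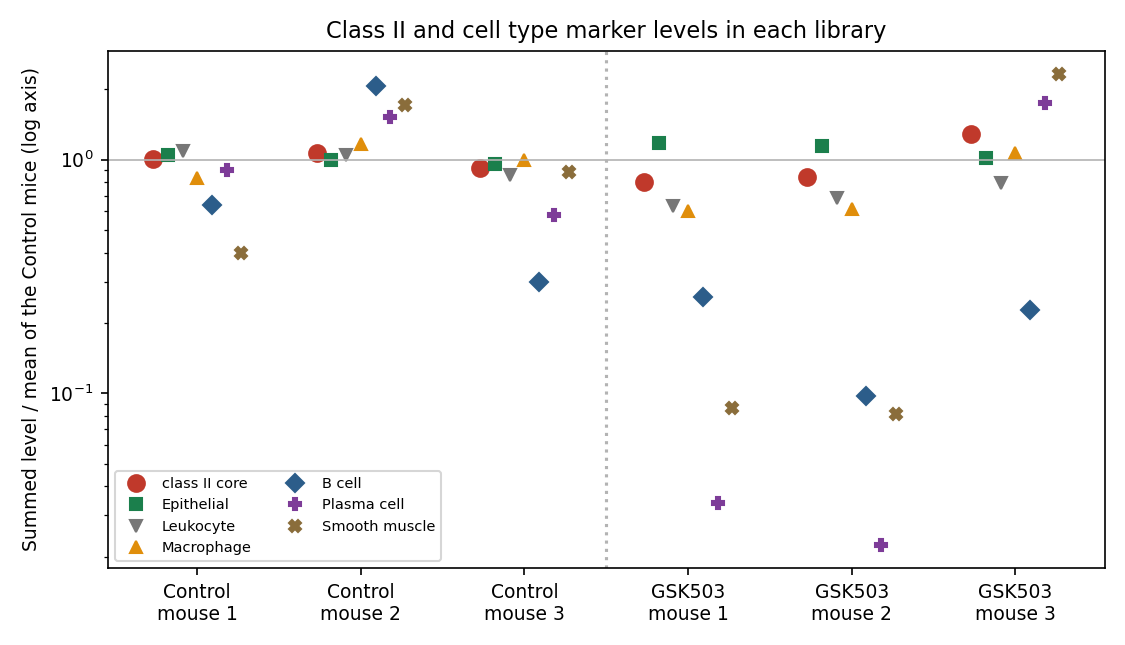
Summed level of the class II core (*H2-Aa*, *H2-Ab1*, *H2-Eb1* and *Cd74*) and of marker lists of other cell types in each mouse, divided by the mean of the 3 control mice, on a log axis. The class II core lies at 0.80, 0.84 and 1.29 in the GSK503 mice, while the plasma cell and smooth muscle sums lie below 0.1 in GSK503 mice 1 and 2 and at 1.75 and 2.32 in mouse 3.

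The genes whose pattern over the 6 mice was most like the mean of the class II core were found by the root mean square distance between log2 values, each centred on its own mean, among 12799 genes. The nearest was the adhesion gene *Cadm1* at a distance of 0.05, followed by *AW112010* at 0.055, the class I gene *H2-Q6* at 0.073, *Adcy7* at 0.087 and *Fam89b* at 0.093, where the median gene stood at 0.301. *H2-DMb2* came 11th of the candidates, *B2m* 37th and *Irf1* 181st. The distance grows with the size of a gene's swings, so a gene that follows the same order of mice with wider swings also ranks far down. With 6 mice and this many candidates, the order is a description of these libraries.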

How the data were processed

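Total RNA from colonic crypts of 3 control and 3 GSK503 mice was sequenced with a stranded kit. The authors aligned reads with STAR to GRCm39 and estimated gene abundance with RSEM. The deposited values are a signal, CPM that the authors scaled with the TMM factors of edgeR. Whether counting used strand, and the annotation, are not given in the sources used here. Columns summed to between 975566 and 1076042. One count was taken as the largest low value of which most others were whole multiples, and 74.9% to 77.7% of values were whole within 0.001 counts.

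Values were analysed as log2(value + 0.1) for the 16670 genes at 0.1 or more in at least 3 of 6 mice, which left out 1379. Groups were compared with limma 3.58.1 in R 4.3.3 (moderated test with intensity trend, two-sided, Benjamini-Hochberg adjustment over all genes tested, called under 0.05, 95% intervals). Fold changes on this scale understate those of low genes. The script was tested on simulated data. Symbols were matched to GENCODE M39 for 95.4% of genes. All 10 members were named. Of the pathway lists, those with the largest or smallest estimate and textbook anchors were named, as were the 10 genes nearest in pattern, of which 5 are printed. *Nfyb*, *Rfx5*, *Cxcl9*, *Gbp2*, *Gbp3* and the single marker genes were added after their values were seen. Members and lists were chosen with earlier results of these data known. Alternatives were other pseudocounts, filters and scalings, limma-voom, a replicate block and leaving out each mouse. No library pair held identical values. The deleted gene of the mouse line and 1 gene of the interferon-γ list are not reported here.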

Additional observations from a re-analysis of the deposited data

How the results depend on the processing

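With 3 mice per group and 1 library per mouse, the intervals of the class II genes were wide, and for *H2-Oa* and *H2-Ob* the counts were few. None of the 10 was called by limma under any of 17 alternatives (0 to 0 with 1 mouse left out). Over the whole table, 107 genes were called. Without a filter on low values 70 were called, without the intensity trend 16, and with scaling by library size alone 261, of which 83 were higher and 178 lower in GSK503 mice against 83 and 24 with the deposited scaling. That scaling moved the median of all genes to -0.12 and turned *H2-Ab1* to -0.11 and *H2-DMb1* to -0.0578, which relative to that median are 0.01 and 0.06. With the replicate number as a block 33 were called, and it called none of the 10. The deviations of same-numbered mice gave correlations of 0.03, -0.13 and -0.12, within the range of -0.17 to 0.22 for mice of unlike number. With 3 mice per group, these values cannot settle whether the numbers pair the mice. Leaving out 1 mouse gave 29 to 216 called genes: 44 without control mouse 2, 49 without control mouse 3, 63 without GSK503 mouse 1, 29 without GSK503 mouse 2 and 216 without GSK503 mouse 3. The median log2FC of the 10 then lay between -0.30 and 0.04. Single genes changed sign, with ranges of -0.28 to 0.029 for *H2-Aa*, -0.22 to 0.15 for *H2-Ab1*, -0.31 to 0.0906 for *H2-Eb1*, -0.29 to 0.056 for *Cd74*, -0.31 to 0.0315 for *H2-DMa*, -0.0842 to 0.20 for *H2-DMb1* and -0.15 to 0.057 for *Ctss*. *Ciita* stayed below 0, at -0.58 to -0.22, with adjusted p from 0.0874 to 0.806 over the 17 alternatives. *H2-Oa* and *H2-Ob* stayed below 0 in 16 alternatives, and the stricter filter removed both. Their size was unstable, at -1.21 to -0.12 and -1.55 to -0.18 with 1 mouse left out, and -2.02 to -0.12 and -1.55 to -0.18 over all 16. The cause of these shifts was not tested.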
